A study of Mus musculus with 6 samples.

Results

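The transcripts of 10 enzymes of sphingolipid and ceramide metabolism, Sptlc1, Sptlc2, Cers2, Cers4, Cers5, Cers6, Degs1, Sgms1, Smpd1 and Asah1, were followed in the liver of mice with diet-induced insulin resistance (IR). They were picked by gene symbol from the 54532 genes of the count table, each symbol occurred once, and all 10 were among the 13377 genes kept by the filter on low counts. The animals were male C57BL/6J mice fed a high-fat diet (HFD) for 6 weeks from 8 weeks of age, so that both groups carried the IR model and no lean group enters here. After 16 h without food, 3 mice (IR insulin) received insulin at 0.75 units per kg body weight by intraperitoneal injection and 3 mice (IR vehicle) received bovine serum albumin (BSA), the carrier of the insulin, and livers were collected 6 h later. Each library is the liver RNA of 1 mouse, and whole liver was sequenced, so fewer cells of a type and less RNA per cell cannot be told apart.

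Sphingolipids are built on a long-chain base rather than on glycerol. Serine palmitoyltransferase, a complex of SPTLC1 and SPTLC2 with a small activating subunit, starts the de novo route by joining serine and palmitoyl-CoA, ceramide synthases (CERS) add a second fatty acid whose length depends on the isoform, and the desaturase DEGS1 makes ceramide from dihydroceramide. Ceramide is then passed on to sphingomyelin by SGMS1, returned from sphingomyelin by the lysosomal acid sphingomyelinase SMPD1, or broken down to sphingosine by the acid ceramidase ASAH1. In liver, ceramides rise in fatty liver disease and are known to dampen insulin signalling, and the chain made by CERS6 has been studied most in this respect.

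Library totals ran from 18449986 to 21827619 counts. Expression is given in CPM (counts scaled to a common library size, after correction by the trimmed mean of M values, TMM), and mean ± SD is over 3 mice. Vehicle replicates 2 and 3 both stood apart. Pairs among the remaining libraries had a Pearson's r of log2 CPM of 0.9795 to 0.9879. With any other library, vehicle replicate 3 reached at most 0.9544. Vehicle replicate 2 was the furthest from the rest, at 0.9205 or less. Its difference from the median of the others followed the GC content of the transcripts across 13367 genes, at a Spearman's rho of −0.67, against −0.15 to 0.31 in the other libraries. Of the 13377 genes tested, vehicle replicate 2 held the highest value of 4787 (35.8%) and the lowest value of 4999. Summed hepatocyte markers (8 genes, albumin among them) came to 61130 to 167200 CPM per library, and all 8 had counts in every library.

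The members differed widely in level. Per kilobase of the longest annotated transcript, Cers2, the ceramide synthase of very-long-chain ceramides, was the most abundant at 87.0 ± 12.1 CPM per kb (SD over all 6 libraries). Degs1 followed at 28.9 ± 5.01 CPM per kb, Smpd1 at 20.3 ± 1.41, Asah1 at 11.2 ± 2.76 and Sptlc1 at 10.2 ± 2.92. The lower part of the order was Sptlc2 at 4.68 ± 1.72 CPM per kb, Sgms1 at 2.48 ± 1.02, Cers6 at 1.28 ± 0.706, Cers5 at 0.738 ± 0.191 and Cers4 at 0.285 ± 0.0612. All neighbours in this order but one pair kept it in at least 5 of the 6 libraries. The exception was Asah1 and Sptlc1, where Asah1 was the higher one in 3 of 6 and the levels differed by less than their spread. With the median length of the coding transcripts in place of the longest one, the order was the same except that Cers5 (2.32 CPM per kb) passed Cers6 (2.17 CPM per kb).

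**Figure D1:**
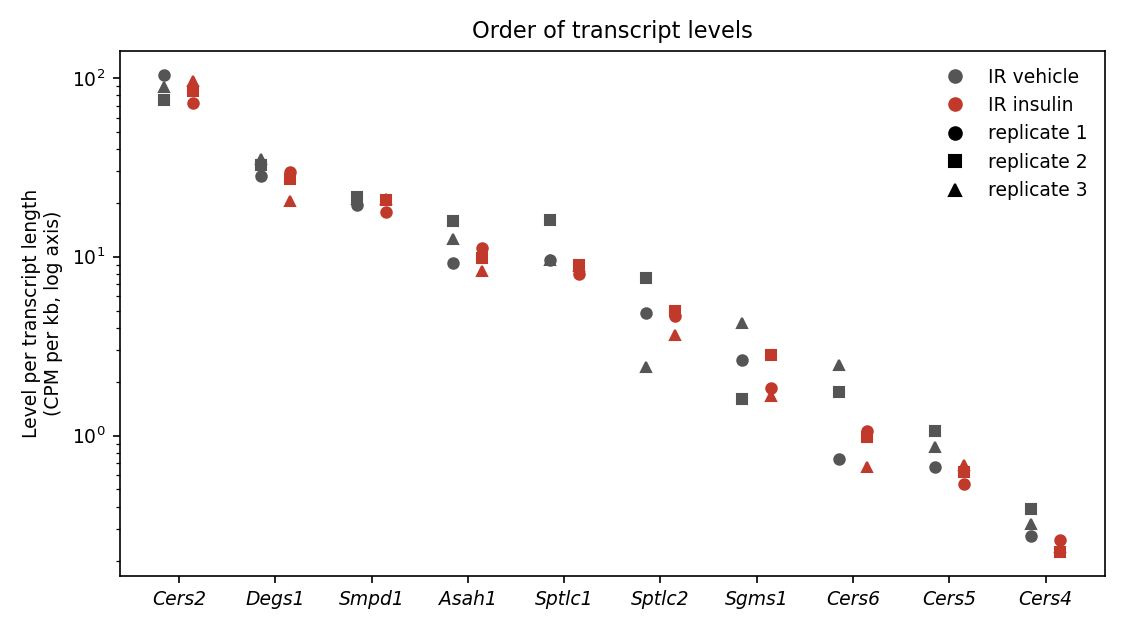
Level of each member in CPM per kilobase of its longest annotated transcript (log axis), with 1 point per library, grey for IR vehicle and red for IR insulin, and the symbol giving the replicate. Cers2 lies above the other 9 genes in every library, and Cers4 lies lowest.

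Within a library the Cers genes can be set against each other without any scaling between libraries. Cers2 made up 95.9 to 98.4% of the summed level per kb of Cers2, Cers4, Cers5 and Cers6 in each of the 6 libraries. Cers6, which makes long-chain (palmitoyl) ceramides, made up 0.702%, 2.24% and 2.67% of it in vehicle replicates 1, 2 and 3 and 1.42%, 1.13% and 0.686% in insulin replicates 1, 2 and 3. The highest shares were those of vehicle replicates 2 and 3, and vehicle replicate 1 lay within the insulin values. Cers5, the other palmitoyl-ceramide synthase, held 0.630 to 1.35% with vehicle and 0.699 to 0.722% with insulin.

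The comparison of IR insulin with IR vehicle asks whether insulin altered the transcript levels of this pathway in mice resistant to it. All 10 members had a lower mean with insulin, and their median log2 fold change was −0.39, where the median of all genes tested was −0.017 and 48.6% of those genes were higher with insulin. None of these differences passed the test. With edgeR's quasi-likelihood test and Benjamini-Hochberg adjustment over 13377 genes, 0 members were called at an adjusted p under 0.05, as were 0 genes in all (0%), and the members' adjusted p values ran from 0.852 to 0.934. DESeq2 and voom likewise called 0 genes after adjustment, and before adjustment 383 genes by edgeR, 507 by DESeq2 and 213 by voom had a p under 0.05. The study's own criteria for differential expression ask for a log2 fold change of 0.35 or more in size and an unadjusted p under 0.05. Of the 10 members 0 met them, beside 2.86% of all genes, most of them (1.86% of all) lower with insulin. To choose candidate genes the study used stricter criteria, which were not applied here. The groups did not overlap for 2 members, Sptlc1 and Cers4, both lower with insulin, beside 12.3% of all genes (6.25% higher and 6.04% lower). The highest of the 6 values belonged to a vehicle library for each of the 10 members, as it did for 65.6% of all genes.

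**Figure D2:**
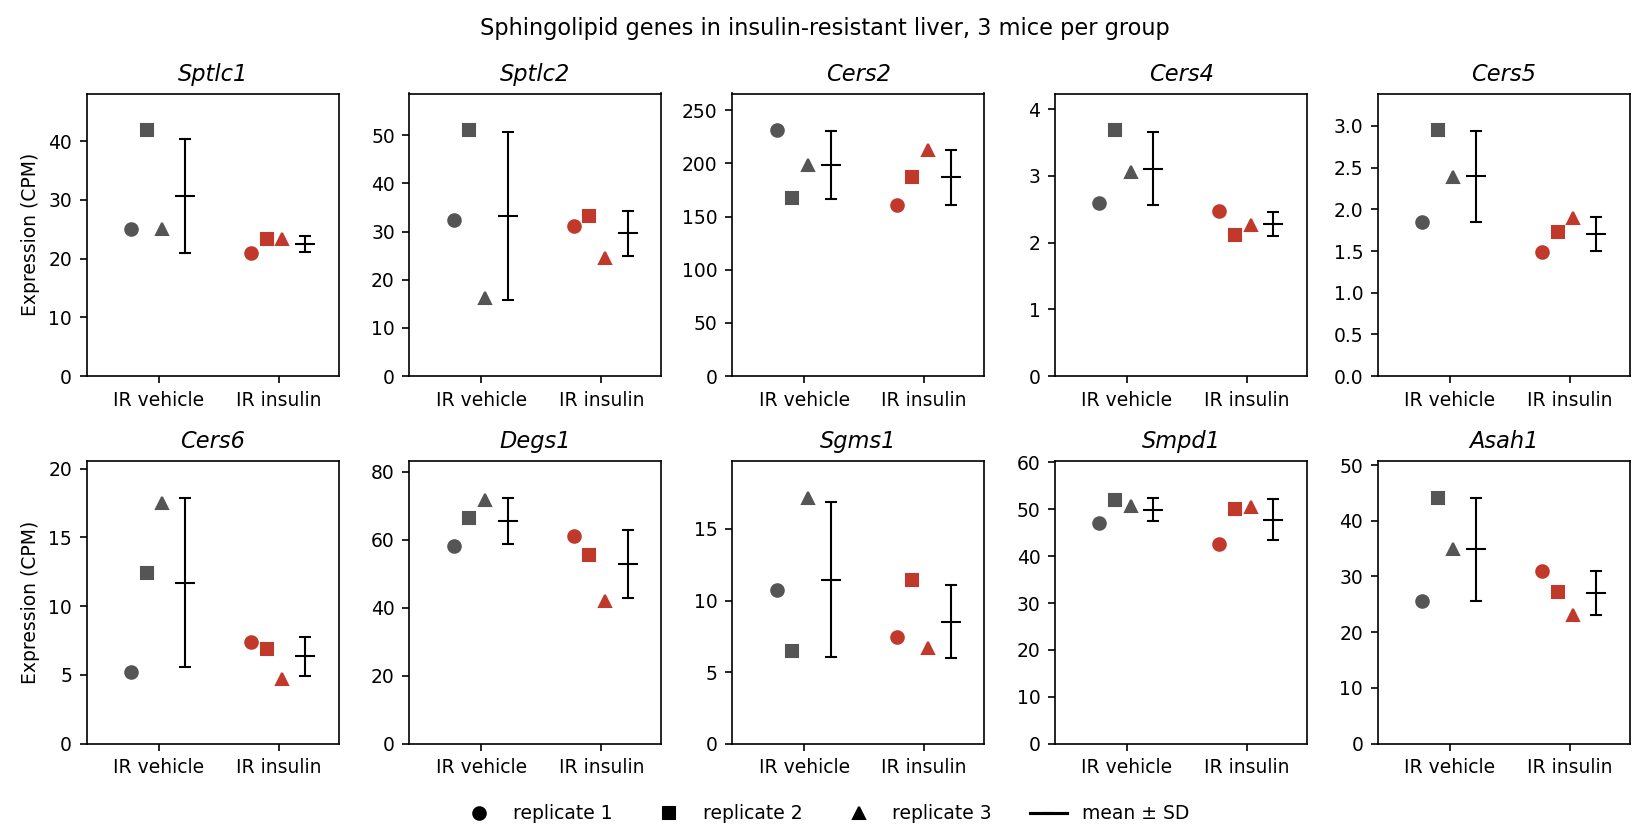
Expression in CPM of each member in every library, with vehicle replicates in grey, insulin replicates in red, and the mean ± SD of 3 mice beside them. For Sptlc1 and Cers4 all insulin points lie below all vehicle points, and for the other 8 genes the groups overlap.

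Sptlc1 encodes the subunit that every serine palmitoyltransferase holds (build 38, chromosome 13, 53332748 to 53377397, minus strand, no overlapping gene). Vehicle replicates 1, 2 and 3 held 25.1, 41.8 and 25.0 CPM of it, and insulin replicates 1, 2 and 3 held 20.9, 23.3 and 23.3 CPM. Vehicle replicate 2 was far above the rest, and the remaining vehicle values were within 2 CPM of the highest insulin value. The log2 fold change was −0.44 ± 0.27 (SE), with a 95% interval of −1.06 to 0.17 and an unadjusted p of 0.134 by edgeR. Without vehicle replicate 2 it was −0.15.

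Sptlc2 encodes the catalytic partner (chromosome 12, 87305058 to 87388355, minus strand). Its vehicle values were 32.4, 51.0 and 16.3 CPM and its insulin values 31.1, 33.3 and 24.5 CPM. The vehicle group held both the highest and the lowest of the 6 values, in replicates 2 and 3. The log2 fold change of −0.16 ± 0.39 (SE, 95% interval −1.07 to 0.74, unadjusted p 0.687 by edgeR) turned to 0.29 when vehicle replicate 2 was left out and came to −0.49 when vehicle replicate 3 was. The ratio of Sptlc1 to Sptlc2 per kb was 1.99, 2.11 and 3.96 with vehicle and 1.74, 1.80 and 2.45 with insulin, so both subunits did not vary in step in vehicle replicate 3. Sptssa, which encodes the small activating subunit of the same enzyme, is taken up with the rest of the pathway.

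Cers2 (chromosome 3, 95314791 to 95323599, plus strand) gave 231, 167 and 198 CPM in the vehicle mice and 161, 188 and 213 CPM in the insulin mice. The values of the groups ran across each other, and the log2 fold change was −0.089 ± 0.23 (SE, 95% interval −0.63 to 0.45, unadjusted p 0.715 by edgeR). Leaving out vehicle replicate 1 made it 0.036, and leaving out insulin replicate 1 made it 0.014. Setdb1 overlaps Cers2 on the other strand, and whether the counts heeded strand is not stated, so reads of that gene can be included.

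Cers6 (chromosome 2, 68861441 to 69114282, plus strand) showed the largest difference of the 10. Its vehicle values were 5.24, 12.4 and 17.5 CPM and its insulin values 7.43, 6.88 and 4.71 CPM. Vehicle replicates 2 and 3 lay above all insulin libraries, and vehicle replicate 1 lay among them. The mean was 11.7 ± 6.16 CPM with vehicle and 6.34 ± 1.44 CPM with insulin (SD, n = 3). Expressed as a log2 fold change this was −0.89 ± 0.44 (SE), with a 95% interval of −1.90 to 0.12 and an unadjusted p of 0.0778 by edgeR, a size at percentile 94.4 of the genes tested. Without vehicle replicate 1 it was −1.24 (unadjusted p 0.00755, adjusted p 0.474), and without vehicle replicate 3 it was −0.47 (unadjusted p 0.296). With no filter on low counts the unadjusted p was 0.0470, and with voom, which weights the libraries by quality, the change was −0.14 (unadjusted p 0.718). Several unnamed gene models lie inside Cers6 on the same strand, so its counts are uncertain.

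Cers4 (chromosome 8, 4493026 to 4531680, plus strand), a synthase of long-chain and very-long-chain ceramides, was at 2.59, 3.68 and 3.05 CPM with vehicle and at 2.48, 2.12 and 2.26 CPM with insulin. All insulin values were lower than all vehicle values, the nearest pair being vehicle replicate 1 and insulin replicate 1. The log2 fold change was −0.44 ± 0.31 (SE, 95% interval −1.17 to 0.29, unadjusted p 0.199 by edgeR), and −0.27 with the GC offset. Cers5 (chromosome 15, 99734881 to 99772885, minus strand) was at 1.85, 2.95 and 2.39 CPM with vehicle and at 1.49, 1.73 and 1.89 CPM with insulin, and here vehicle replicate 1 fell inside the insulin range. Its log2 fold change was −0.49 ± 0.35 (SE, 95% interval −1.30 to 0.33, unadjusted p 0.204 by edgeR), and −0.31 when vehicle replicate 2 was left out. Few reads stood behind both genes, 49 to 64 per library for Cers4 and 33 to 50 for Cers5. Counting error alone gives a coefficient of variation of 13.2 to 16.2% at these numbers of reads, against observed values of 7.83 to 22.9%.

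Degs1 encodes the desaturase that completes ceramide (chromosome 1, 182275772 to 182282804, minus strand, no overlapping gene). Expression was 58.2, 66.4 and 71.7 CPM in the vehicle libraries and 61.1, 55.4 and 41.9 CPM in the insulin libraries. Insulin replicate 3 was the lowest of all, and insulin replicate 1 exceeded vehicle replicate 1. Means were 65.4 ± 6.83 and 52.8 ± 9.86 CPM (SD, n = 3), which on the log2 scale differed by −0.31 ± 0.23 (SE, 95% interval −0.84 to 0.22, unadjusted p 0.216 by edgeR). Without insulin replicate 3 the difference was −0.16 (unadjusted p 0.576). Degs1 and Smpd1 were the members that varied more among insulin than among vehicle mice. The other 8 varied more among vehicle mice, as did 85.1% of all genes tested.

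Sgms1 makes sphingomyelin from ceramide in the Golgi (chromosome 19, 32122727 to 32389714, minus strand, with another gene model on either strand). Its vehicle values were 10.7, 6.45 and 17.2 CPM and its insulin values 7.47, 11.4 and 6.69 CPM, so the vehicle libraries included both extremes. The log2 fold change was −0.43 ± 0.40 (SE, 95% interval −1.34 to 0.49, unadjusted p 0.312 by edgeR). Leaving out vehicle replicate 3 brought it to −0.012, and leaving out vehicle replicate 2 brought it to −0.70. Vehicle replicate 2, the highest library for 6 members, was the lowest for Sgms1.

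Smpd1, the acid sphingomyelinase gene, was the steadiest member (chromosome 7, 105554360 to 105558389, plus strand, no overlapping gene). It was at 47.2, 51.9 and 50.8 CPM with vehicle and at 42.7, 50.0 and 50.6 CPM with insulin. Means of 50.0 ± 2.48 and 47.7 ± 4.38 CPM (SD, n = 3) gave a log2 fold change of −0.065 ± 0.20 (SE), with a 95% interval of −0.52 to 0.39 and an unadjusted p of 0.750 by edgeR. With an offset for GC content the change was −0.49 (unadjusted p 0.124). Smpd1 had the highest GC content of the 10, at 55.7%.

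Asah1, the acid ceramidase gene, closes the lysosomal route (chromosome 8, 41340197 to 41374773, minus strand, no overlapping gene). In order of replicate it stood at 25.6, 44.1 and 34.9 CPM after vehicle and at 31.0, 27.1 and 23.2 CPM after insulin. Vehicle replicates 2 and 3 were the highest libraries, and vehicle replicate 1 came between insulin replicates 2 and 3. The log2 fold change of −0.36 ± 0.26 (SE, 95% interval −0.97 to 0.25, unadjusted p 0.206 by edgeR) was −0.15 without vehicle replicate 2, −0.18 with the GC offset and −0.026 with voom. The ratio of Smpd1 to Asah1 per kb was 2.12, 1.36 and 1.67 with vehicle and 1.58, 2.12 and 2.51 with insulin, with overlap.

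**Figure D3:**
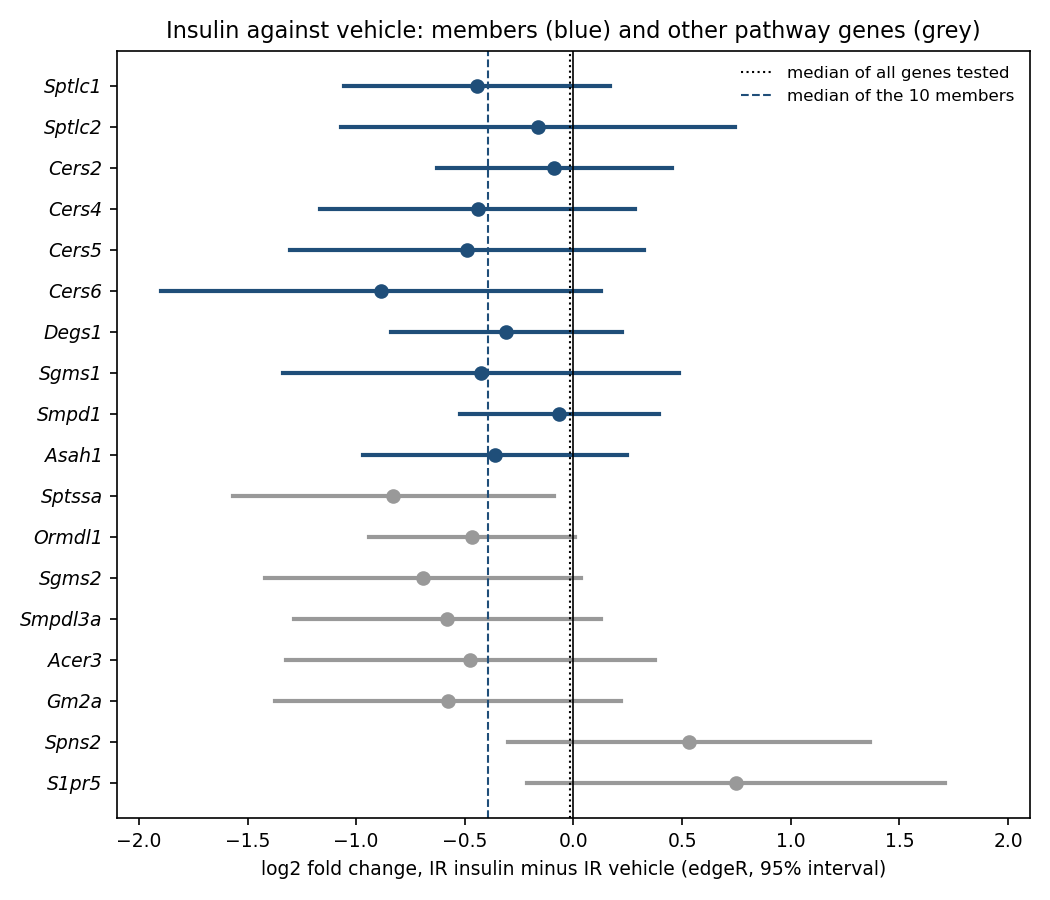
Log2 fold change of IR insulin over IR vehicle (edgeR) with its 95% interval for the 10 members in blue and 8 other genes of the pathway in grey. The dashed line is the median of the members (−0.39) and the dotted line that of all genes tested (−0.017). Every blue interval includes 0, and Sptssa is the one gene shown whose interval does not.

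The study followed USF1, a transcription factor for the lipogenic gene Fasn that is known to bind the E-box CACGTG, so the promoters of the members were searched for those letters. RefSeq windows (GRCm38.p6) from 250 bases before to 50 bases after a start were found for 9 of the 10 members, in 13 windows. The motif, which reads alike on both strands, was in 3 of the 13, one each for Cers2, Cers6 and Degs1, and in 7.15% of 32851 windows of all genes. The stretches around it are shown because these are the members whose windows hold it, and capitals mark the E-box. Counted from the RefSeq start of its window, it begins 129 bases upstream for Cers2 (chr3:95315049-95315078, plus strand), 22 for Cers6 (chr2:68861407-68861436, plus strand) and 43 for Degs1 (chr1:182282221-182282250, minus strand). The GENCODE models of Cers2 and Degs1 begin further upstream than these RefSeq starts, so there the motif lies inside the gene, 270 and 566 bases after its first base and outside its annotated exons.
Cers2: cgccctgcggggCACGTGccacccgccccg
Cers6: cggccaggctgcCACGTGacaggcgaggcg
Degs1: gggagcctcaatCACGTGgtccagtcagct
A match in letters is not a binding site, and the log2 fold changes of the 3 genes, −0.089, −0.89 and −0.31, spanned most of the range of the members.

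The rest of the pathway was read from a list of 59 further genes, of which 47 passed the filter. Of these, 22 were higher and 25 lower with insulin, at a median log2 fold change of −0.028 (all genes −0.017, with 48.6% higher), and 1 met the study's criteria, beside 2.86% of all genes. The groups did not overlap for 2 of the 47, beside 12.3% of all genes. That gene was Sptssa, the small subunit that activates serine palmitoyltransferase (chromosome 12, 54645392 to 54656573, minus strand). It was at 47.6, 106 and 76.8 CPM with vehicle and at 48.9, 46.0 and 35.1 CPM with insulin. Vehicle replicates 2 and 3 were again the high libraries, and vehicle replicate 1 lay below insulin replicate 1. The log2 fold change was −0.83 ± 0.32 (SE, 95% interval −1.57 to −0.089). By edgeR the p was 0.0325 unadjusted and 0.852 adjusted. The unadjusted p was 0.0215 by DESeq2, 0.214 by voom and 0.0589 with the GC offset. Without vehicle replicate 2 the change was −0.52. When 1 library was left out the unadjusted p by edgeR ran from 0.00656 (vehicle replicate 1) to 0.118 (insulin replicate 3). It was under 0.05 in that first case alone of the 6.

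Genes that restrain serine palmitoyltransferase did not share a direction. Ormdl1, whose product restrains the enzyme when ceramide is plentiful, was at 20.2, 24.2 and 21.8 CPM with vehicle and at 16.8, 16.1 and 14.99 CPM with insulin, without overlap. Its log2 fold change was −0.47 ± 0.21 (SE, unadjusted p 0.0535 by edgeR), and the unadjusted p was 0.0439 by DESeq2 and 0.352 with the GC offset. The other genes of that family had positive values, Ormdl2 at 0.45 ± 0.31 (SE, unadjusted p 0.187 by edgeR) and Ormdl3 at 0.52 ± 0.45 (SE, unadjusted p 0.279 by edgeR). Ormdl2 was at 22.2, 11.7 and 11.6 CPM with vehicle and at 18.9, 18.9 and 24.45 CPM with insulin. Ormdl3 was at 120.5, 29.5 and 85.0 CPM with vehicle and at 103.8, 113.8 and 119.9 CPM with insulin. The groups overlapped for both, and vehicle replicate 1 held the highest value of Ormdl3 and vehicle replicate 2 the lowest. These 2 were named after their values were seen.

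In ceramide transfer and complex sphingolipid synthesis, 3 genes were higher and 8 lower of 11 tested, at a median of −0.14, with none past the criteria (all genes: median −0.017, 48.6% higher, 2.86% past the criteria). The smallest p was that of Sgms2, the plasma membrane sphingomyelin synthase, at 20.3, 42.4 and 35.6 CPM in vehicle mice and 17.1, 19.1 and 24.6 CPM in insulin mice (log2 fold change −0.69 ± 0.31 SE, unadjusted p 0.0591 by edgeR), and its change was −0.46 without vehicle replicate 2. The sphingomyelinase part of the list also takes in relatives of the acid enzyme, and there 2 of 5 were higher and 3 lower, at a median of −0.0026. Smpdl3a, a secreted relative of acid sphingomyelinase, had the smallest p among them (−0.58 ± 0.31, unadjusted p 0.0955 by edgeR, and −0.29 without vehicle replicate 2). Of 3 further ceramidases 1 was higher and 2 lower, at a median of −0.41, the smallest p belonging to the alkaline ceramidase gene Acer3 (−0.47 ± 0.37, unadjusted p 0.235), which was at 28.2 CPM in vehicle replicate 2 and at 10.6 to 13.6 CPM elsewhere. None of these genes had an adjusted p below 0.852.

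The lysosomal genes of glycosphingolipid breakdown were split evenly, 6 higher and 6 lower of 12, at a median of −0.028, beside −0.017 and 48.6% higher over all genes. Gm2a, the activator protein for ganglioside hydrolysis, had the smallest p among them (−0.58 ± 0.34 SE, unadjusted p 0.132 by edgeR), and without vehicle replicate 3 its change was −0.13 (unadjusted p 0.614). Genes of sphingosine 1-phosphate were mostly on the positive side, 5 of 7 for its metabolism and export (median 0.044) and 3 of 4 for its receptors (median 0.39), again with none past the criteria. For Spns2, the exporter of sphingosine 1-phosphate, the difference on the log2 scale was 0.53 ± 0.36 (SE, unadjusted p 0.180 by edgeR), which came to 0.21 without vehicle replicate 2 and 0.16 with the GC offset. The receptor gene S1pr5 was at 8.30, 2.46 and 5.44 CPM with vehicle and at 9.14, 8.36 and 9.78 CPM with insulin, without overlap, at 0.75 ± 0.42 (SE, unadjusted p 0.111). Vehicle replicate 2 gave its lowest value, and the change was 0.41 without that library and 1.20 without vehicle replicate 1.

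The remaining 12 genes of the list did not pass the filter. Cers1, Sptssb and Acer1 had no count in any library, which allows up to 0.1299 to 0.184 CPM per library (3 counts), and Cers3, the synthase of skin ceramides, had none in 4 of 6. Cers1 shares its strand and position with Gdf1, and reads in the shared stretch are uncertain.

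The vehicle libraries differed among themselves in the members. Set against the median of the other 5 libraries, the median member was higher by 0.60 on the log2 scale in vehicle replicate 2 and by 0.30 in vehicle replicate 3, and by 0.014 in vehicle replicate 1. In insulin replicates 1, 2 and 3 it was at −0.15, −0.10 and −0.30. Over all genes tested the corresponding medians were between −0.021 and 0.0071. Vehicle replicate 2 held the highest value of 6 members, vehicle replicate 3 that of Cers6, Degs1 and Sgms1, and vehicle replicate 1 that of Cers2. The members' transcripts had a median GC content of 45.9%, against 49.4% over all genes tested, and low-GC transcripts tended to be high in vehicle replicate 2. The part of GC content in the members' values was not tested. Summed hepatocyte markers were likewise highest in vehicle replicates 2 and 3, at 73990, 167200 and 111400 CPM in vehicle replicates 1, 2 and 3, against 77030, 77290 and 61130 CPM in the insulin libraries, and their part in the members' values was not tested. With a GC offset in the fit the median log2 fold change of the members was −0.31, and without vehicle replicate 2 it was −0.24.

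**Figure D4:**
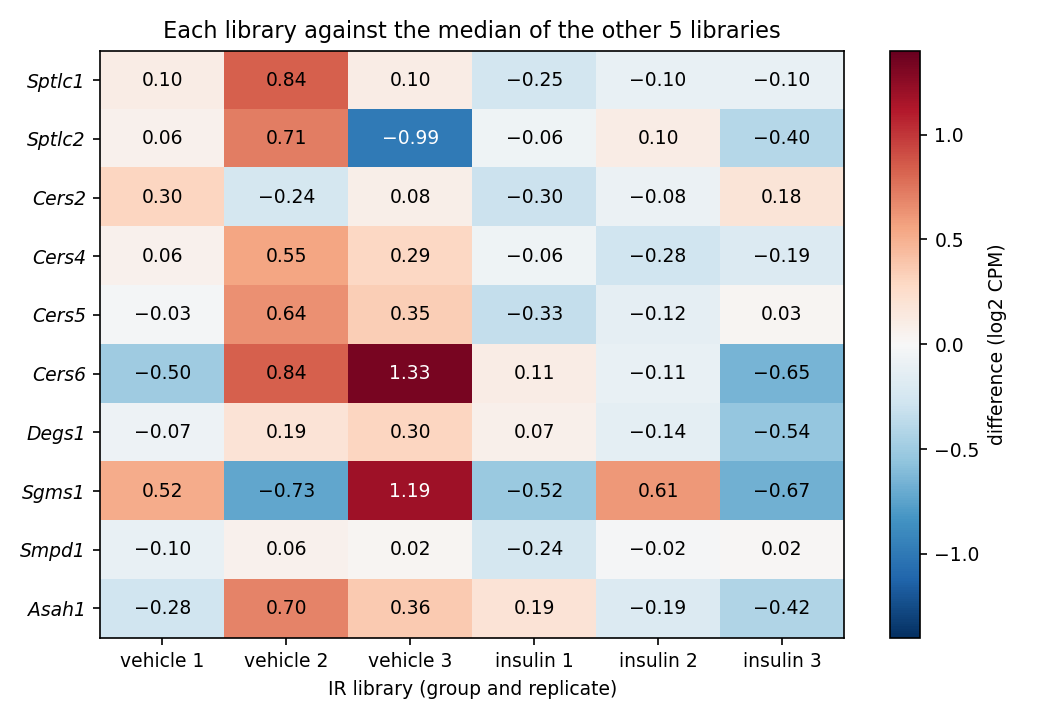
Difference in log2 CPM between each library (columns) and the median of the other 5 libraries, for each member (rows), red for higher and blue for lower. Red cells gather in vehicle replicates 2 and 3, with Sptlc2 in vehicle replicate 3 (−0.99) and, in vehicle replicate 2, Sgms1 (−0.73) and Cers2 (−0.24) as exceptions.

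Transcripts of other cells also differed between libraries. Erythroid markers (5 genes) summed to 395 to 1182 CPM with vehicle, highest in replicate 2, and to 292 to 449 CPM with insulin, with overlap. Of the 3 tested, 2 met the study's criteria, beside 2.86% of all genes. B cell markers (5 genes) summed to 40.3 CPM in vehicle replicate 2 and to 2.86 to 10.04 CPM in the other libraries, and the groups overlapped. Of these, 1 of 3 tested met the criteria. Macrophage, endothelial and stellate markers also overlapped between groups, at 280 to 515, 140 to 259 and 153 to 224 CPM with vehicle and 362 to 679, 149 to 163 and 121 to 201 CPM with insulin, with 0 genes past the criteria. Bile duct (19.8 to 50.8 CPM), neutrophil (3.39 to 70.8 CPM), adipocyte (0.191 to 153.6 CPM) and T cell (0.784 to 1.48 CPM) sums overlapped as well. In the pancreas list 4 of 5 genes were at 0 in every library. The part of these cells in the values of the members was not tested.

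The direction of the members was compared under 15 other ways of processing or choosing the libraries. In 140 of the 150 resulting fold changes the member was lower with insulin, and no adjusted p was under 0.05. All 150 come from the same mice, so they show dependence on the processing and do not repeat the comparison. Scaling by library size alone, without TMM, moved the median of all genes to 0.16 and that of the members to −0.20. Sptlc2, Cers2 and Smpd1 then took positive signs (0.051, 0.077 and 0.12), while all 10 stayed below the median of all genes. All 10 lay below that median in 9 of the 15 alternatives, and the lowest number in any of them was 8. The split of genes past the study's criteria was 134 higher and 249 lower with TMM, 250 and 91 with library size alone, 108 and 105 by voom and 93 and 379 with the GC offset.

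**Figure D5:**
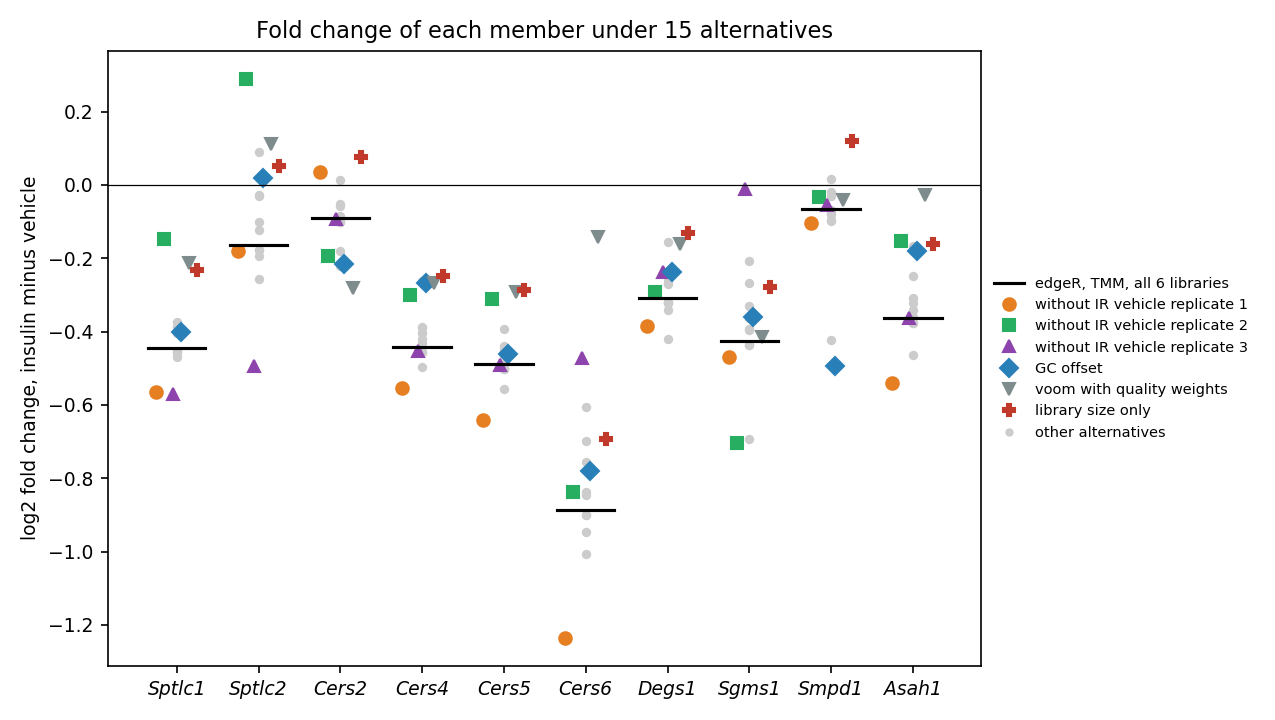
Log2 fold change of each member under 15 alternatives, with the black bar for edgeR on all 6 libraries with TMM, symbols for the alternatives named in the key and light grey dots for the others. Cers6 spans −1.24 to −0.14, and Sptlc2 runs from −0.49 to 0.29 depending on which vehicle library is left out.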

How the data were processed

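The deposited table holds raw read counts per Ensembl gene, as whole numbers with 1 column per mouse. The authors sequenced NEBNext Ultra libraries and aligned the reads to mm10 (mouse build 38) with Bowtie v2.2.3. How reads were assigned to genes, with which annotation and strand setting, is not given in the sources used here. Groups came from the sample labels, each replicate being 1 mouse, and no batch is labelled. Counts were tested with edgeR 4.0.16 (quasi-likelihood F test, TMM, filterByExpr at its settings of 10 counts and 15 in total, no covariate, R 4.3.3), and p values were adjusted by Benjamini-Hochberg over 13377 genes. The biological coefficient of variation was 0.357. Molecular identifiers are not mentioned in the sources used here, and limits from counts cover counting error only. Alternatives were DESeq2 1.42.0, voom with quality weights (limma 3.58.1), RLE and upper-quartile factors, no filter, a loess GC offset (span 0.5), the replicate number as a block, leaving out each library, and, added after seeing the data, library size alone. Positions, lengths and GC content came from GENCODE mouse release 21 (build 38), which held 54409 of the 54532 genes (99.8%).

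The members, the lists and the markers were chosen with earlier results of these data known. Named are the 10 members and, of the other 59 pathway genes, those past the study's criteria and the one with the smallest p in each role. Lists are described by counts and medians, with no set test.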

Additional observations from a re-analysis of the deposited data

How the results depend on the processing

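Of the members' 150 fold changes under 15 alternatives, 138 kept their sign and their side of an unadjusted p of 0.05. Signs turned for Sptlc2 with voom (0.11), the GC offset (0.019), both the replicate block and the GC offset (0.090), library size alone (0.051) and without vehicle replicate 2 (0.29, in a leave-one-out range of −0.49 to 0.29), for Cers2 with library size alone (0.077) and without vehicle replicate 1 (0.036) or insulin replicate 1 (0.014, range −0.19 to 0.036), and for Smpd1 with library size alone (0.12) and without insulin replicate 1 (0.015, range −0.10 to 0.015). Of the other named genes, Acer3 turned without vehicle replicate 2 (0.055, range −0.73 to 0.055). The causes were not tested. The median of the members ran from −0.50 to −0.19.

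The number of members past the study's criteria was 1 (Cers6) with no filter on low counts and ran from 0 to 1 when 1 library was left out, reaching 1 without vehicle replicate 1. The number of other pathway genes past them, 1 of 47, became 2 with RLE factors, no filter or DESeq2, 0 with voom, the GC offset, library size alone, the replicate block, or the block with the GC offset, and 0 to 6 with 1 library left out (6 without vehicle replicate 1, 3 without vehicle replicate 2, 0 without insulin replicate 1). Over all genes, 383 became 742 with no filter and 213 with voom, and ran from 99 to 1349 with 1 library left out (1349 omitting vehicle replicate 1, 888 omitting vehicle replicate 3, and 99, 143 and 120 omitting insulin replicates 1, 2 and 3 in turn). In every alternative 0 genes had an adjusted p under 0.05 (edgeR, DESeq2 or voom), while 99 to 1349 had an unadjusted one.

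The labels do not say whether same-numbered mice of both groups share more than a number. Their deviations from the group means correlated at −0.039, 0.069 and 0.017, against −0.11 to 0.089 for differently numbered pairs. With the replicate block 321 genes passed the study's criteria and the median of the members was −0.35.

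At 33 to 64 reads per library, counting error alone gives Cers4 and Cers5 a coefficient of variation of 13.2 to 16.2%, below that observed with vehicle (17.6 and 22.9%) and above that observed with insulin (7.83 and 12.0%). For the other members counting error is 1.55 to 8.39%.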
